A study of Homo sapiens with 18 samples.

Results

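The urokinase system, 3 serpins, the membrane metalloproteinase MMP14 and 2 metalloproteinase inhibitors are described here in 2 human prostate cancer cell lines. The genes are PLAU, PLAT, PLAUR, SERPINE2, SERPINB5, SERPINB6, MMP14, TIMP1 and TIMP2, 9 of the 63241 genes in the deposited count table, taken by gene name. They were chosen from their measured CPM, the counts scaled to a common library size, across these same groups, where most of them were high in PC-3 and low in LNCaP and some moved with treatment. Their levels and fold changes are therefore given as a description, without p-values.

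Poly(A) RNA was sequenced in 18 libraries, 3 for each of 6 groups. LNCaP, a line of androgen-sensitive cells taken from a metastatic lymph node, was untreated or received genistein or baicalein for 24 h, each at 10 or 20 µM. PC-3, a line that grows without androgen and came from metastatic bone, was untreated. All groups carry the genotype label wild type and grew in RPMI-1640 with serum, and the protocol gives a DMSO vehicle for the controls that the labels call untreated. Both drugs are plant polyphenols with the same atoms in a different arrangement, genistein being an isoflavone and baicalein a flavone. Each group is 1 established cell line in culture, with no stroma, no vessels and no blood plasma other than the serum in the medium. Whether replicates were separate cultures is not stated in the labels, and the p-values measure no more than the spread between libraries, possibly a technical one.

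Urokinase, made by PLAU, and tissue plasminogen activator, made by PLAT, are secreted serine proteases that cut plasminogen to plasmin. PLAUR encodes the membrane receptor that holds urokinase at the cell surface. Plasmin degrades fibrin and matrix and can activate metalloproteinases, and serpins, which trap serine proteases in a covalent complex, restrain both activators. SERPINE2 makes protease nexin-1, an inhibitor of thrombin, urokinase and plasmin. SERPINB5 makes maspin, a serpin of epithelium that does not inhibit proteases in the classical way, and SERPINB6 makes an intracellular inhibitor of trypsin-like proteases and cathepsin G. MMP14 is a membrane-anchored collagenase that activates pro-MMP2 together with TIMP2, and TIMP1 and TIMP2 are secreted metalloproteinase inhibitors.

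Total counts ran from 10013567 to 18445711 per library. Libraries of LNCaP after baicalein at 20 µM stood apart in the share of counts on mitochondrially encoded genes, at 10.6 to 14.5%, against 4.16 to 6.35% in the other groups. The summed level of 8 LNCaP markers was 3892 to 4139 CPM in untreated LNCaP, 824.9 to 856.8 after baicalein at 20 µM and 97.9 to 102.8 in PC-3. In the other treated groups it was also below untreated. It was 2931 to 3328 CPM after genistein and 2884 to 3204 after baicalein at 10 µM, and 2361 to 2548 after genistein at 20 µM. The summed level of 8 PC-3 markers was 6032 to 6893 CPM in PC-3 and 16.6 to 19.3 in untreated LNCaP. Of the markers of fibroblasts, leukocytes and endothelium, DCN and CDH5 had no count in untreated LNCaP or in PC-3.

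The members that differed between the baicalein doses below were SERPINE2, MMP14, SERPINB5 and SERPINB6, and the bases around their RefSeq starts are shown so that the 4 can be compared at the sequence level. Each run holds the 250 bases before and the 50 from the start, 5′ to 3′ on the gene's strand, on GRCh38.p14. Capitals mark the AP-1 core TGANTCA, the GC box GGGCGG and the CCAAT box CCAAT, searched on both strands, and the 3 motifs do not overlap each other in these windows.
SERPINE2, chr2:224031429-224031728, minus strand: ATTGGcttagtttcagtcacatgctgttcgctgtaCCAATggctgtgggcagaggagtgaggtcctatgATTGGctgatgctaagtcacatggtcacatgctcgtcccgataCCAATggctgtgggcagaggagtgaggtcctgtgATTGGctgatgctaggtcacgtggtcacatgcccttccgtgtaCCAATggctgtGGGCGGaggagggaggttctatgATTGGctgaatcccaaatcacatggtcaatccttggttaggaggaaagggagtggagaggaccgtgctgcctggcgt
MMP14, chr14:22836335-22836634, plus strand: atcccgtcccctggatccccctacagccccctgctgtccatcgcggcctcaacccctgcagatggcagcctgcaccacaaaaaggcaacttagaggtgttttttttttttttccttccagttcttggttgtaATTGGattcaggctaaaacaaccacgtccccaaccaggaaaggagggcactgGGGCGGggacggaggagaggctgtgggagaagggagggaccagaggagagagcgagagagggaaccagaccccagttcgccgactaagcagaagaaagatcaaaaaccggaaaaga
SERPINB5, chr18:63476708-63477007, plus strand: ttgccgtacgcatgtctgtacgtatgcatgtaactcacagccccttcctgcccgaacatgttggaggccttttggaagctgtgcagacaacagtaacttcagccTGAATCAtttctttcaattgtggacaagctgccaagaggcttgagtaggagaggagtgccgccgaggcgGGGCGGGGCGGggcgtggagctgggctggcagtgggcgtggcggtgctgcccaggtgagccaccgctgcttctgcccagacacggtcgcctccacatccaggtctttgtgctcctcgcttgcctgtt
SERPINB6, chr6:2971518-2971817, minus strand: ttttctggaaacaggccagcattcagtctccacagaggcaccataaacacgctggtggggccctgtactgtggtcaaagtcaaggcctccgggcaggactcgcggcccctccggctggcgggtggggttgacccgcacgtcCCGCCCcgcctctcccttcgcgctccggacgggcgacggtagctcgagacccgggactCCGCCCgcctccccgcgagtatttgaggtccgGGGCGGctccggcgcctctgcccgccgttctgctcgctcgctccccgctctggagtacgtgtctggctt

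The SERPINE2 window held 7 CCAAT matches in near-repeated stretches, a number that 0.0228% of 35116 RefSeq promoters of this length reach or pass. At least 1 CCAAT match occurred in 34.6% of promoters, and the other windows held 1 (MMP14) and 0 (SERPINB5 and SERPINB6). GC boxes numbered 1 in SERPINE2, 1 in MMP14, 2 that overlap in SERPINB5 and 3 in SERPINB6, against 45.0% of promoters with at least 1. An AP-1 core was present in SERPINB5, its first base 146 bases before the start, and in the PLAUR window, 186 bases before, a motif that 7.71% of promoters hold. The windows of PLAU and PLAUR held no GC box and that of TIMP1 held 2. The ratio of observed to expected CpG was 0.298 in PLAU, 0.390 in SERPINE2, 0.442 in MMP14, 0.602 in SERPINB5 and 0.912 in SERPINB6, with a median of 0.579 over all promoters. The RefSeq start of SERPINE2 lies 7840 bases inside the gene as deposited, that of PLAU 1433, that of SERPINB6 598 and that of PLAUR 378 bases inside, so these 4 windows do not lie at the deposited gene starts. No promoter was matched for PLAT and TIMP2. A match is a stretch of letters, and no binding was measured here.

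**Figure D1:**
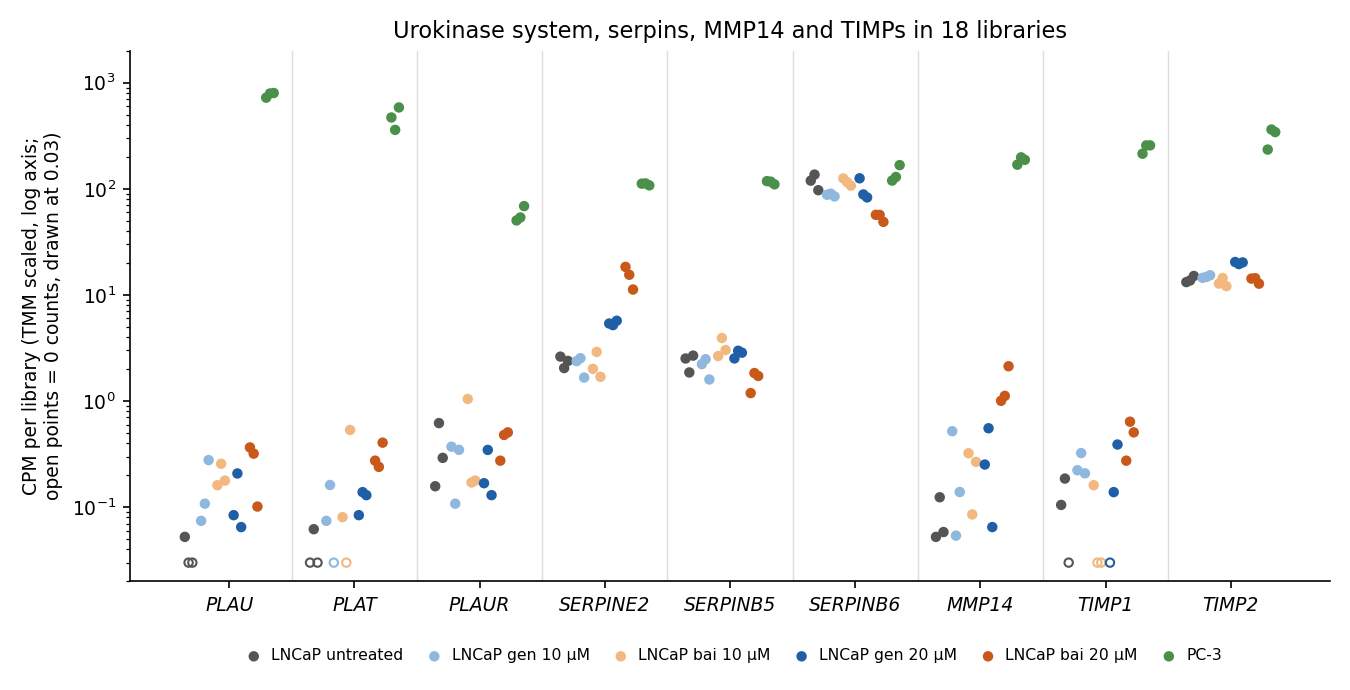
Level of each of the 9 genes in every library, as CPM scaled by TMM on a log axis, with 3 points per group and open points drawn at 0.03 CPM for libraries with 0 counts (gen, genistein; bai, baicalein; doses in µM). PC-3 lies above every LNCaP library for each gene except SERPINB6, and PLAU, PLAT, PLAUR and TIMP1 stay near or below 1 CPM in all LNCaP groups.

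Untreated PC-3 and LNCaP were compared first, which asks how the system differs between the lines. In PC-3, 8 of the 9 genes were called higher and none lower, where 37.0% of the 17259 genes tested were called higher and 37.9% lower. A gene was called where the quasi-likelihood test of edgeR gave an adjusted p under 0.05 over all genes tested. The median log2 difference was 7.35 over the 9 genes and −0.02 over all genes, but the genes were picked for that contrast and nothing is read from either figure. SERPINB6 was the gene not called. PLAU, PLAT, PLAUR, MMP14 and TIMP1 had so few counts in untreated LNCaP that they passed the filter on low counts through PC-3 alone. These genes had to be higher there to be tested at all. Listed genes below with few counts in either line likewise had to differ between the lines to be tested.

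PLAU, at chr10:73909177-73917496 on the plus strand, had 722.6, 791.1 and 799.6 CPM in the PC-3 libraries, which came close to each other. The 3 untreated LNCaP libraries held 1, 0 and 0 counts. The ratio of PC-3 to LNCaP was 40530, with a 95% counting interval from 7275 to 1.601e+06 that rests on that single count. C10orf55 lies on the opposite strand and shares 916 exonic bases with PLAU, but it carried 84 counts in all libraries against 23330 for PLAU. PLAT had 470.1, 359.2 and 584.6 CPM in PC-3, a wider spread than PLAU. Untreated LNCaP held 0, 1 and 0 counts of PLAT, a ratio of 24000 (4306 to 9.479e+05). Both activators were thus abundant in 1 line and at the edge of detection in the other.

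Plasminogen itself, PLG, had no count in the untreated libraries of either line, which allows up to 3 counts per group, and was named here after its values were seen. The receptor gene PLAUR, at chr19:43646095-43670547 on the minus strand, had 50.4, 53.7 and 68.7 CPM in PC-3. Its levels in untreated LNCaP were 0.157, 0.620 and 0.291 CPM, from 3, 10 and 5 counts. The ratio was 166.4 (105.0 to 281.5).

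Of the serpins, SERPINE2, at chr2:223975045-224039318 on the minus strand, had 111.8, 112.4 and 107.7 CPM in PC-3 and 2.62, 2.05 and 2.39 in untreated LNCaP. Its log2 difference was 5.56 ± 0.13 (SE). SERPINB5, at chr18:63476958-63505085 on the plus strand, had 118.1, 116.7 and 110.3 CPM in PC-3 against 2.52, 1.86 and 2.68 in LNCaP, a log2 difference of 5.61 ± 0.16. These 2 serpins had nearly the same level in each line, with group means of 110.6 and 115.0 CPM in PC-3 and of 2.35 CPM for both in untreated LNCaP. SERPINB6, at chr6:2948159-2972165 on the minus strand, had 119.6, 129.2 and 167.2 CPM in PC-3 and 119.4, 136.1 and 97.0 in LNCaP. The libraries of the lines overlapped, and the log2 difference was 0.25 with a 95% interval from −0.18 to 0.67. With the trend on GC content and gene length removed, SERPINB6 was called higher in PC-3 by 0.60.

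MMP14, at chr14:22836560-22849041 on the plus strand, had 168.8, 197.9 and 187.5 CPM in PC-3, and 1, 2 and 1 counts in untreated LNCaP. The ratio was 2441 (952.7 to 8961). MMP2, the protease that MMP14 is known to activate, had 8 counts in PC-3 and 5 in untreated LNCaP and was likewise named after its values were seen. TIMP1, at chrX:47582408-47586789 on the plus strand, had 214.1, 256.3 and 256.6 CPM in PC-3 and 2, 3 and 0 counts in LNCaP, a ratio of 2558 (1096 to 7881). TIMP1 lies within the opposite-strand gene SYN1, with 0 shared exonic bases and 27 counts for SYN1. TIMP2, at chr17:78852977-78925387 on the minus strand, differed less, with 234.3, 361.8 and 342.2 CPM in PC-3 and 13.2, 13.7 and 15.1 in LNCaP. Its log2 difference was 4.49 ± 0.19. Of the 2 inhibitors, TIMP2 was thus the one that LNCaP libraries also held in quantity.

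Levels of different genes can be set side by side only per length, here as CPM per kilobase of the GENCODE 29 exons joined over all transcripts, which understates genes with long rarely used exons such as SERPINB6 at 13201 bases. In PC-3 the order of this level was PLAU (261.4), TIMP1 (157.3), PLAT (71.2), TIMP2 (55.5), MMP14 (41.4), SERPINB5 (29.2), PLAUR (12.9), SERPINE2 (12.4) and SERPINB6 (10.5). PLAT and TIMP2 differed by less than the larger of their SDs, and so did PLAUR and SERPINE2. In untreated LNCaP the order began with SERPINB6 (8.90), followed by TIMP2 (2.49), SERPINB5 (0.597) and SERPINE2 (0.265), each gap being wider than the larger SD. PLAUR, TIMP1, MMP14, PLAU and PLAT came below, at 0.0799 or less. The gene at the bottom of the order in PC-3 was the one at the top in LNCaP.

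Treatment of LNCaP was examined in 1 fit of all 15 LNCaP libraries. Of the 9 genes, 5 passed the filter on low counts, namely SERPINE2, SERPINB5, SERPINB6, MMP14 and TIMP2. MMP14 reached the filter's level of 0.782 CPM in the 3 libraries of baicalein at 20 µM and in none of the other 12, so it had to differ there to be tested at all. The comparisons with untreated cells share the same 3 control libraries. At 10 µM neither drug gave a called member, against 0.112% of all 16985 genes tested for genistein and 0.400% for baicalein. At an unadjusted p under 0.05, edgeR took 0 of the 5 for genistein and 1 (SERPINB5) for baicalein at that dose, and DESeq2 called 0 of the members for either. The intervals at 10 µM allow changes of SERPINE2 from −0.51 to 0.50 for genistein and from −0.53 to 0.50 for baicalein on the log2 scale.

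**Figure D2:**
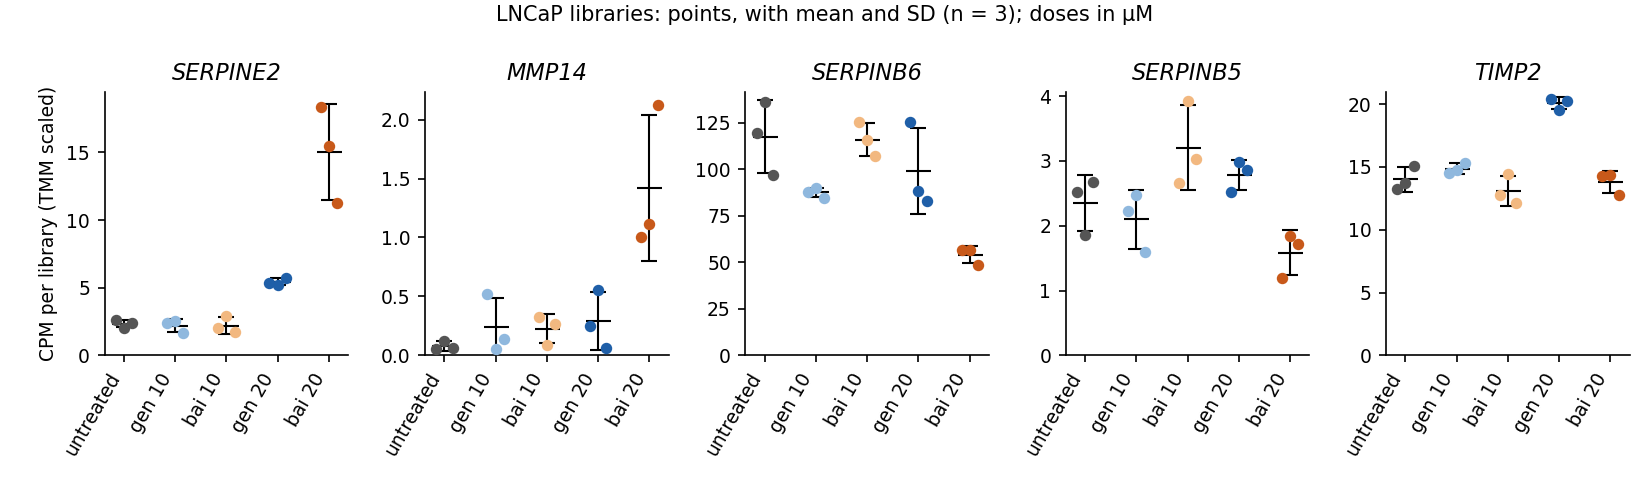
CPM of the 5 genes tested in LNCaP, on a linear axis from 0 for each gene, with 1 point per library and bars for mean and SD over 3 libraries (gen, genistein; bai, baicalein; doses in µM). SERPINE2 is raised at 20 µM of both drugs, MMP14 and the fall of SERPINB6 stand out at baicalein 20 µM, and TIMP2 is raised at genistein 20 µM.

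SERPINE2 was the member with the largest steps among the 4 well counted serpin and TIMP genes. Its level per library was 2.62, 2.05 and 2.39 CPM in untreated LNCaP, 2.38, 2.53 and 1.67 after genistein at 10 µM, and 2.01, 2.90 and 1.69 after baicalein at 10 µM. At 20 µM it was 5.38, 5.19 and 5.71 CPM after genistein and 18.4, 15.5 and 11.2 after baicalein. The lower dose overlapped with untreated cells for both drugs, and the higher dose did so for neither. The log2 fold change at 20 µM was 1.23 ± 0.22 for genistein and 2.75 ± 0.22 for baicalein. At the same 20 µM, genistein lay below baicalein by a log2 difference of −1.52, with an interval from −1.97 to −1.06. The mean SERPINE2 level after baicalein at 20 µM was 15.03 ± 3.58 CPM (SD, n = 3), against 110.6 ± 2.54 in PC-3.

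MMP14 had 11, 14 and 21 counts in the libraries of baicalein at 20 µM, which is 1.01, 1.12 and 2.13 CPM. Untreated LNCaP held 1, 2 and 1 counts, and the libraries of the other treatments held 1 to 8. By counts alone the ratio of baicalein at 20 µM to untreated was 18.1 (6.60 to 69.1), and the fitted log2 fold change was 4.11 ± 0.79. Genistein at 20 µM gave 3, 8 and 1 counts, a log2 fold change of 1.82 whose interval runs from −0.34 to 3.98. The difference between the drugs at this dose was −2.30 (−3.70 to −0.89).

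SERPINB6 went the other way. Its level was 119.4, 136.1 and 97.0 CPM in untreated LNCaP, 125.3, 115.6 and 107.1 after baicalein at 10 µM, and 56.8, 56.8 and 48.8 after baicalein at 20 µM. All 3 libraries of the higher dose lay below every other LNCaP library, and the log2 fold change was −1.04 ± 0.17. Genistein gave 87.9, 89.9 and 84.8 CPM at 10 µM and 125.6, 88.5 and 83.0 at 20 µM. Replicate 1 of genistein at 20 µM lay within the untreated range while the other 2 libraries lay below it, and the log2 fold change was −0.21 (−0.58 to 0.16) with all 3 and −0.49 without that library.

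SERPINB5, the maspin gene, had 2.52, 1.86 and 2.68 CPM in untreated LNCaP, 2.66, 3.93 and 3.03 after baicalein at 10 µM and 1.19, 1.84 and 1.72 at 20 µM. Against untreated cells the change at 20 µM was −0.49 (−0.98 to −0.01) and was not called. It became called without untreated replicate 2, without the mitochondrially encoded genes, with the GC and length trend removed, and in a fit of all 18 libraries. Between the baicalein doses the log2 difference was −1.02 ± 0.23. Genistein gave 2.23, 2.48 and 1.596 CPM at 10 µM and 2.52, 2.98 and 2.85 at 20 µM, within or near the untreated range.

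TIMP2 differed with genistein alone among the calls against untreated cells. Its level was 13.2, 13.7 and 15.1 CPM in untreated LNCaP and 14.5, 14.8 and 15.3 after genistein at 10 µM. After genistein at 20 µM it was 20.4, 19.5 and 20.2 CPM, above every other LNCaP library, with a log2 fold change of 0.55 ± 0.10. Baicalein gave 12.8, 14.4 and 12.1 CPM at 10 µM and 14.3, 14.4 and 12.8 at 20 µM, with a change at the higher dose of 0.06 (−0.17 to 0.28). The difference between the drugs at 20 µM was itself called, at 0.49 (0.27 to 0.72).

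**Figure D3:**
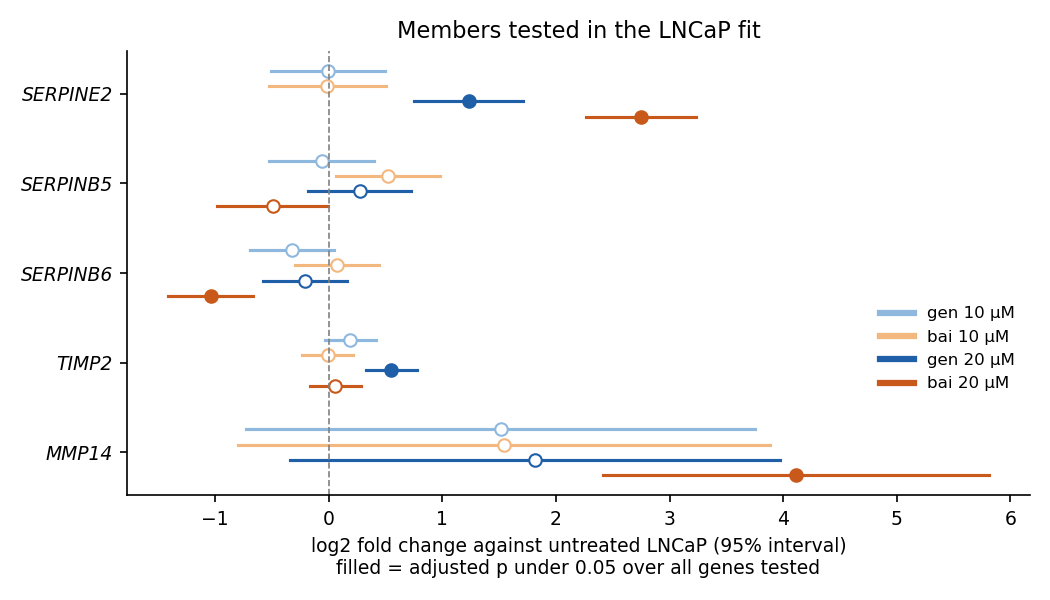
Log2 fold change against untreated LNCaP of the 5 genes tested, with 95% intervals from the fit, filled points for an adjusted p under 0.05 over all genes tested (gen, genistein; bai, baicalein). The intervals of all 5 genes at 10 µM include 0 except that of SERPINB5 with baicalein, and MMP14 has the widest intervals.

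Counted over the 5 genes tested, genistein at 20 µM gave 2 called higher (SERPINE2 and TIMP2) and 0 lower, where 8.31% of all genes tested were called higher and 8.12% lower. Baicalein at 20 µM gave 2 higher (SERPINE2 and MMP14) and 1 lower (SERPINB6), where 29.4% and 27.8% of all genes were. The median log2 fold change of the 5 was 0.55 for genistein and 0.06 for baicalein at 20 µM, against 0.05 and 0.04 over all genes. From 10 to 20 µM, genistein gave 2 called (SERPINE2 and TIMP2) against 13.2% of all genes, and baicalein gave 4 (all but TIMP2) against 54.4%. The call of TIMP2 between the genistein doses, a step of 0.36, was lost when any 1 of the 6 libraries was left out. Since the genes were chosen with these contrasts in view, the counts are set beside the background shares without a reading.

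Genistein and baicalein were compared at each of the 2 matched doses, with p-values adjusted over all genes. At 10 µM, 0 members were called by edgeR or by DESeq2, 2 (SERPINB5 and SERPINB6) had an unadjusted p under 0.05, and 0.00589% of all genes were called. The difference, genistein minus baicalein, was −0.40 (−0.77 to −0.03) for SERPINB6 and −0.59 (−1.05 to −0.12) for SERPINB5. At 20 µM all 5 were called, where 25.4% of all genes were called higher and 23.3% lower with genistein. SERPINB5, SERPINB6 and TIMP2 were higher with genistein, by 0.77, 0.83 and 0.49, and SERPINE2 and MMP14 were higher with baicalein. The SERPINB5 call ended without replicate 1 of baicalein at 20 µM. The step from 10 to 20 µM differed between the drugs for 3 of the 5 genes, SERPINE2, SERPINB5 and SERPINB6, against 32.8% of all genes.

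PLAU, PLAT, PLAUR and TIMP1 stayed under the filter in LNCaP, and their counts are given as sums over 3 libraries. PLAU had 1 count in untreated cells, 7 and 5 after genistein at 10 and 20 µM, and 7 and 9 after baicalein. PLAT had 1, then 4 and 5 with genistein and 7 and 10 with baicalein. By counts the ratio of baicalein at 20 µM to untreated was 14.1 (1.96 to 619.7) for PLAU and 15.7 (2.24 to 681.7) for PLAT. Both were called in that comparison by DESeq2, without the filter, and in a fit of all 18 libraries. TIMP1 had 5 counts in untreated cells and 16 after baicalein at 20 µM, a ratio of 5.03 (1.76 to 17.5). It was called in that comparison in the fit of all 18 libraries, but not without the filter or by DESeq2. Between the baicalein doses TIMP1 was called without the filter and in the fit of all 18 libraries, but not by DESeq2. PLAUR had 18 and 14 counts, a ratio of 1.22 (0.562 to 2.60), and was not called in these settings. Counting intervals cover counting error only. The highest LNCaP level of any of these 4 genes was 1.05 CPM, for PLAUR in replicate 1 of baicalein at 10 µM, where the other 2 libraries had 0.171 and 0.178.

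Genes abundant in PC-3 were also read in the LNCaP libraries, and the part of RNA from PC-3 in these low counts was not tested. SERPINB7, at 117 CPM in PC-3, had 0 counts in untreated LNCaP and at 20 µM of either drug, and 1 count in each group at 10 µM. S100A10, at 651 CPM in PC-3, had 0 counts in untreated LNCaP, 9 and 13 after genistein at 10 and 20 µM, and 10 and 9 after baicalein. LGALS1, at 2519 CPM in PC-3, was at 0.228 CPM in untreated LNCaP and 0.727 after baicalein at 20 µM. The summed level of the 8 PC-3 markers rose to 23.8 to 25.5 CPM with genistein and to 49.1 to 51.2 with baicalein at 20 µM, of which VIM held 20.3 and CXCL8 18.4 with baicalein. The part of the shift in line markers and of the mitochondrial share in the changes of the members was not tested, and leaving out mitochondrially encoded genes ended no member's call. Fewer cells that hold a transcript and less of it per cell cannot be told apart in bulk RNA.

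Across the 15 LNCaP libraries, SERPINE2 and SERPINB6 ran against each other, with a Pearson r of −0.79 on log2(CPM + 1), and SERPINB5 and SERPINB6 ran together at 0.58. These values describe libraries that share treatment groups. Among 11247 genes of at least 5 CPM, those most like SERPINE2 over the same libraries were HERPUD2 (r = 0.98), MBD2 (0.98) and DAZAP2 (0.98). MBD2 stood at 66.8 CPM in untreated LNCaP, 116.7 after genistein and 238.1 after baicalein at 20 µM. RNASEH2A (0.93), SNX19 (0.92) and STX18-AS1 (0.92) were most like SERPINB6. TSPAN5 (0.94) and GAS6-AS1 (0.93) were most like TIMP2, and GAS6-AS1 went from 14.3 CPM to 78.1 with genistein at 20 µM and to 13.1 with baicalein.

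Around these 9 genes, 75 others of the same system were counted in 5 lists, of which 30 were tested in LNCaP and 38 between the lines. Adjusted p-values of these genes are from the same edgeR fits over all genes. The lists too were chosen with earlier results of these data known, so these p-values are a description and no independent support. Against untreated LNCaP, baicalein at 20 µM called 11 of the 30 higher and 11 lower, where 29.4% and 27.8% of all genes tested were. Genistein at 20 µM called 9 higher and 1 lower, where 8.31% and 8.12% of all genes were. Of the 30, SERPINF2, MMP8 and MMP25 reached the filter's level in baicalein at 20 µM alone and had to differ there to be tested. MMP10 reached it in the groups at 20 µM alone. SERPINA1 and MMP13 each reached it at 20 µM and otherwise in only 1 library, at 10 µM. ANXA2 reached it in every treated group but in no untreated library. The genistein count fell to between 5 and 7 when 1 library was left out. At 10 µM, genistein called 0 of the 30, with DESeq2 calling 1 and 4 at an unadjusted p under 0.05 in edgeR. Baicalein at 10 µM called 1, SERPINI1, named after its values were seen, the neuronal serpin neuroserpin that inhibits tissue plasminogen activator.

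Of the 24 other serpins, 5 were tested in LNCaP. Genistein at 20 µM raised 4 of them, where 8.31% of all genes tested were called higher. Baicalein raised 4 and lowered 1, where 29.4% and 27.8% of all genes tested were. SERPINA3, the inhibitor of chymotrypsin-like proteases, had 1.89, 1.61 and 2.16 CPM in untreated cells, 7.14, 7.55 and 6.62 after genistein and 19.0, 27.3 and 21.1 after baicalein at 20 µM. Its log2 fold change was 1.94 (edgeR adjusted p = 7.73e-05) and 3.64 (edgeR adjusted p = 2.55e-08). SERPINA3 had no count in PC-3, unlike SERPINE2. SERPINF2, the main plasmin inhibitor of blood and tested only through this group, had 3, 3 and 3 counts in untreated cells and 27, 36 and 17 with baicalein, a log2 fold change of 3.79. It had 7 counts in all with genistein at 20 µM. SERPINA1 rose with both drugs, by 2.29 and 2.88, and SERPINB8 by 1.29 and 2.18. The genistein calls of SERPINB8 and SERPINI1 (0.43) were lost without any 1 of the 6 libraries, with edgeR adjusted p up to 0.142 and 0.129. Under 8 other processing choices, the SERPINB8 call was lost in 3 and that of SERPINI1 in 2. SERPINI1 was lower with baicalein than with genistein at 20 µM, 7.70 against 14.6 CPM (edgeR adjusted p = 5.99e-05).

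**Figure D4:**
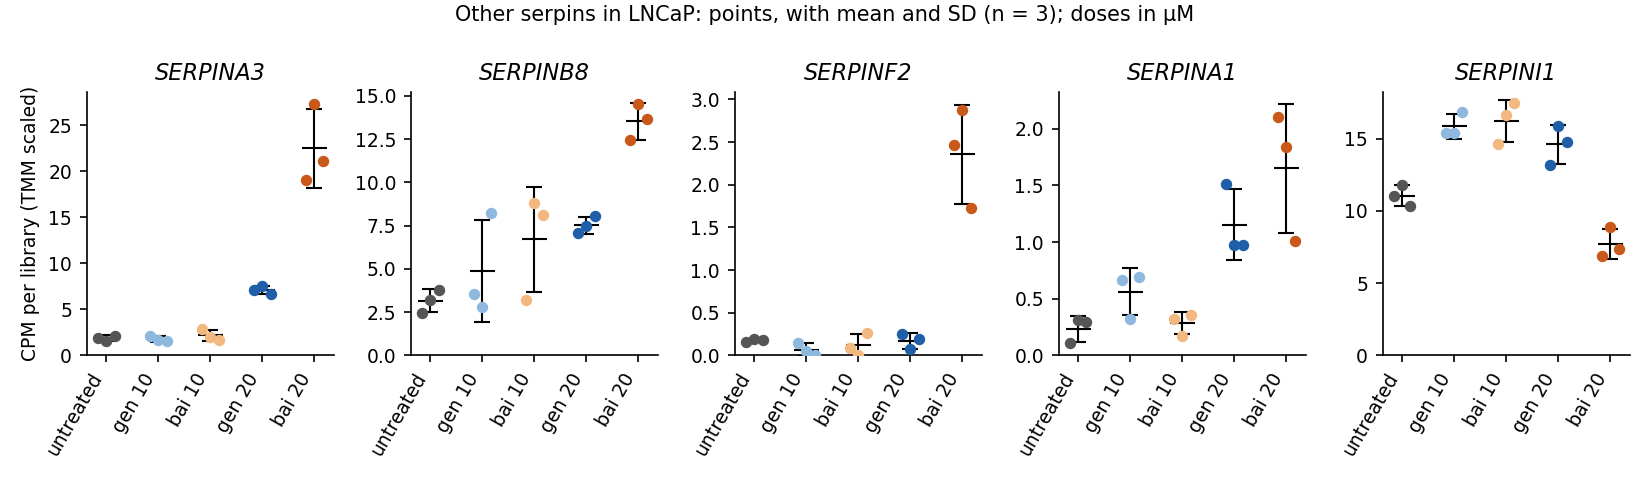
CPM of the 5 other serpins tested in LNCaP, on a linear axis from 0 for each gene, with 1 point per library and bars for mean and SD over 3 libraries (gen, genistein; bai, baicalein; doses in µM). SERPINA3 steps up at 20 µM of both drugs, SERPINF2 at baicalein 20 µM, and SERPINI1 lies above untreated in the 10 µM libraries and lowest at baicalein 20 µM.

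Of 12 other serpins tested between the lines, 10 were higher in PC-3 and 1 lower, where 37.0% and 37.9% of all genes tested were. SERPINB7 was at least 2027-fold higher and SERPINB1 at least 820.5-fold higher in PC-3, against a floor of 3 counts over the LNCaP group. SERPIND1, heparin cofactor II, had a ratio of 205.6 (87.6 to 635.6).

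Of 14 genes that bind, activate or clear plasminogen and its activators, 7 were tested in LNCaP. Baicalein at 20 µM raised 1 and lowered 4, where 29.4% and 27.8% of all genes tested were. The one raised was ANXA2, a cell surface partner of tissue plasminogen activator, tested only through the treated groups. It went from 0.396 to 2.04 CPM, by 2.41 on the log2 scale. Genistein at 20 µM also raised ANXA2, by 1.90. LRP1 and VLDLR, endocytic receptors that take up activator-serpin complexes, fell with baicalein by 1.66 and 1.16 on the log2 scale (edgeR adjusted p = 5.12e-05 and 8.72e-05). PLGRKT, a membrane receptor of plasminogen, fell with baicalein by 0.47. It rose with genistein by 0.40, a call lost without 5 of the 6 libraries in turn (all but genistein replicate 2). That call was also lost in 5 of 8 other processing choices. The drugs differed in PLGRKT by 0.87 (edgeR adjusted p = 3.21e-05). Between the lines 7 were higher in PC-3 and 2 lower, where 37.0% and 37.9% of all genes tested were. ANXA2 stood at 2773 CPM in PC-3, and its partner S100A10 was at least 11290-fold higher there. ANXA2 has processed pseudogenes that can share its reads, so its low LNCaP counts are uncertain.

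Of 22 other metalloproteinases, 9 were tested in LNCaP. Baicalein at 20 µM raised 4 and lowered 2, where 29.4% and 27.8% of all genes tested were. MMP10, a stromelysin tested only through the groups at 20 µM, rose from 9 counts to 56, by 3.30, and with genistein to 53, by 2.84. MMP25 and MMP8, which neutrophils are known for, are 2 of the 4 and were tested only through this group. They went from 5 and 0 counts to 56 and 42, the second at least 21.99-fold, a call that DESeq2 did not make. The 5 leukocyte markers summed to 0.310 to 0.583 CPM in untreated cells and 0.798 to 1.74 with baicalein at 20 µM, of which LYZ went from 0.0874 to 0.959 CPM and PTPRC from 0.179 to 0.159. CD3E had 4 counts in untreated cells and 0 with baicalein at 20 µM, and the part of these markers in the change was not tested. MMP16, a membrane-anchored relative of MMP14, was abundant at 134.6 ± 26.1 CPM and fell with baicalein to 52.0 ± 21.6, by 1.29 on the log2 scale (edgeR adjusted p = 0.00669). Genistein at 20 µM raised 2, MMP10 and MMP13, where 8.31% of all genes tested were called higher. The call of MMP13 was lost without 5 of the 6 libraries in turn (all but untreated replicate 1). It was also lost in 4 of 8 other processing choices. Of 10 tested between the lines, 7 were higher in PC-3, among them MMP1, MMP13 and MMP17, and 2 were lower, MMP15 and MMP16. Of all genes tested, 37.0% were called higher in PC-3 and 37.9% lower.

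Of the 3 other metalloproteinase inhibitors, RECK was tested, a membrane-anchored inhibitor of MMP14 and other metalloproteinases. It rose with baicalein at 20 µM from 7.26 ± 0.13 to 12.1 ± 3.19 CPM, by 0.81 (edgeR adjusted p = 0.00484), and was not called with genistein or between the lines. The drugs differed at 20 µM by −1.15 (edgeR adjusted p = 0.000694). Of 12 membrane serine proteases and Kunitz inhibitors, 8 were tested in LNCaP. Baicalein at 20 µM raised 1 and lowered 4, where 29.4% and 27.8% of all genes tested were. ST14 and HPN, the type II membrane proteases matriptase and hepsin that can activate pro-urokinase, fell with baicalein by 1.16 and 0.95 on the log2 scale. PRSS8, prostasin, rose with both drugs, by 0.95 with baicalein and 0.97 with genistein. Genistein at 20 µM raised 1 of the 8 and lowered 1, DPP4, where 8.31% and 8.12% of all genes tested were. The DPP4 call was lost without untreated replicate 1, genistein replicate 1 or genistein replicate 3. Between the lines 1 was higher in PC-3 (DPP4) and 4 lower, where 37.0% and 37.9% of all genes tested were. HPN stood at 121.6 CPM in untreated LNCaP against 0.181 in PC-3. At 20 µM the drugs differed for 16 of the 30 listed genes, with 11 higher and 5 lower in genistein, where 25.4% and 23.3% of all genes tested were.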

How the data were processed

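Transcripts were counted in 18 libraries of 2 cell lines in 6 groups of 3. The authors deposited 1 whole-number count per gene and library, and the submitters' processing notes name fastp, STAR 2.7.6a, featureCounts 1.6.4, DESeq2 1.20.0 and the build GRCh38, without roles. The library kit does not mark strand, and the strand setting and annotation release are not given in the sources used here, so reads of overlapping or antisense genes cannot be told apart. Another 18 columns of per-sample values, as FPKM, were not used.

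From the deposited counts, CPM were scaled by TMM over all libraries. The test was the quasi-likelihood one of edgeR 4.0.16 in R 4.3.3 (TMM, default filter on low counts, robust), with Benjamini-Hochberg adjustment over all genes tested and a threshold of 0.05. The LNCaP fit held 15 libraries and 16985 genes, and the line fit 6 libraries and 17259 genes. SEs are the unshrunken log2 fold change over the root of F. Where a group had 0 counts, folds are bounds against a floor of 3 counts over the group, and with few counts ratios carry exact 95% counting intervals. Reads carry no molecular identifiers. The scripts were tested on simulated data.

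The 9 members and the 5 lists were chosen with earlier results of these data known. No p-value of a member is therefore given, and those of list genes are a description only. Named from each list were up to 4 called genes with the smallest adjusted p and at least 1 CPM in either group, in each of 4 comparisons. Genes of like pattern were the 3 with the highest Pearson r over LNCaP libraries. Some genes that these rules take are not reported here. Alternatives were DESeq2 1.42.0, its size factors, no filter, other sets of libraries, the replicate number as a block, no mitochondrially encoded genes, a trend on GC content and length, and each library left out. Gene lengths and GC content are from GENCODE 29, and promoters are from RefSeq.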

Additional observations from a re-analysis of the deposited data

Results flagged for a closer look

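Among the members and the list genes named in the text, the following took a different step from 10 to 20 µM with genistein than with baicalein, by the interaction term of the edgeR fit over all genes. This term was called for 3 of the 5 members tested and 11 of the 30 listed genes tested, where 32.8% of all 16985 genes were. No reading is made of these counts. Values are the genistein step minus the baicalein step on the log2 scale. Among the serpins of the 9 members the value was −1.53 for SERPINE2, 1.35 for SERPINB5 and 1.22 for SERPINB6. These 3 entered the set with such values known.

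Among the other genes counted, negative values were found for SERPINA3 (−1.45) and RECK (−1.21). Positive values were found for the plasminogen receptor PLGRKT (0.87), for ENO1, which can bind plasminogen (0.48), and for the endocytic receptor VLDLR (0.99). SERPINI1 had a value of 0.89 and MMP16 of 2.43. The membrane proteases ST14, HPN and DPP4 had values of 0.69, 0.64 and 1.17. TMPRSS11E, whose group means stayed under 1 CPM and which was named after its values were seen, was also called. It had 29 and 31 counts after genistein at 10 and 20 µM and 28 and 0 after baicalein, so its fitted value is no bound and is not given. The groups compared hold 3 libraries each.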

How the results depend on the processing

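No called value of a member or of a named list gene changed sign under the alternatives run. For baicalein at 20 µM against untreated, the number of the 9 genes called was 3. In that main fit 29.4% of all genes tested were called higher and 27.8% lower. The number was 5 without the filter on low counts, 5 by DESeq2 and 7 in a fit of all 18 libraries. All 3 of these alternatives test genes that the filter leaves out, and the fit of all 18 libraries also called SERPINB5, which passes the filter. Shares of all genes called under the alternatives are not given here, so nothing is read from these counts. For genistein at 20 against 10 µM the number called was 2, and 1 in the fit of all 18 libraries. The cause was not tested. The other listed genes called for genistein at 20 µM numbered 10, and 6 without the filter, which tests more genes. With 1 library left out at a time, the counts ran from 1 to 1 for genistein at 20 against 10 µM, from 3 to 4 for baicalein at 20 µM, from 4 to 5 between the drugs at 20 µM, and from 5 to 7 for the other listed genes with genistein at 20 µM. Of 766 log2 values under an alternative, 737 lay within 1 SE of the value reported. Of 792 values of named list genes, 746 kept direction and call and 46 lost the call. DESeq2 size factors moved the median of all genes by less than 0.05. Groups were given the same replicate numbers. Deviations of libraries with the same number had a mean correlation of −0.03 (−0.36 to 0.30), and those with other numbers 0.01, so the numbers were not taken as pairs. With the replicate block, genistein at 20 against 10 µM had 1 call (SERPINE2), and the other counts of members were as without the block. Low counts limit PLAU, PLAT, PLAUR and TIMP1 in LNCaP.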
